A study of Mus musculus with 12 samples.

Results

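The cytosolic ribosomal protein genes are described here in epithelial cells of the mouse thymus (TECs), which instruct and select developing T cells. They were taken from the count table by symbol: Rpl or Rps with a number, an optional a, x or y or a closing l, plus Rplp0, Rplp1, Rplp2 and Rpsa, without pseudogenes named -ps and without the Rps6k kinases. The rule found 83 genes among 27179 rows, 32 of the small (40S) subunit and 51 of the large (60S) subunit, as set by the Rps or Rpl prefix. Those counts include Rps4l and Rpl6l, which RefSeq annotates as a transcribed pseudogene and a pseudogene. Enough counts for a test were present for 81 of the 83, among 18670 genes tested. RNA came from TECs sorted out of fetal thymic organ cultures of C57BL/6 mice, in 4 groups of 3 libraries that the design text calls biological replicates.

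The Kat7 knockout cultures carried RosaCre-ERT2 and Kat7fl/fl alleles and received tamoxifen, which switches on the Cre recombinase. That Cre is made from the broadly active Rosa26 locus, so the design does not limit the deletion to TECs. Deletion in other cells was not measured here. The control cultures also received tamoxifen, and the labels give their genotype only as control. The WM-3835 cultures were wild type and received WM-3835, an inhibitor of KAT7, and the DMSO cultures were wild type and received its solvent. Labels disagree on the inhibitor's name: sample titles have WM-3825, whereas the treatment entries and the study design have WM-3835, which is followed here. No dose or time is given for the inhibitor. All 4 groups began as E15.5 embryonic lobes, spent 4 to 5 days in 1.35 mM 2'-deoxyguanosine, which removes thymocytes, and then 3 days with 10 µg/mL of an activating antibody to RANK, the receptor whose signal induces Aire.

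The libraries held 26656847 to 52368012 counts. Kat7, the histone acetyltransferase that was targeted, stood at 0.606, 0.81 and 0.869 counts scaled to library size (CPM) in Kat7 knockout libraries, against 89.0, 76.5 and 76.0 CPM in control libraries. It stood at 98.5, 100.4 and 99.3 CPM in WM-3835 libraries, against 88.4, 84.6 and 88.9 CPM in DMSO libraries. Aire, whose product opens tissue-restricted genes in medullary TECs, had 542, 490 and 577 CPM in Kat7 knockout libraries and 596, 668 and 636 CPM in control libraries. It had 510, 586 and 572 CPM in WM-3835 libraries, against 1123, 1215 and 1260 CPM in DMSO libraries. The 12 epithelial markers summed to between 9389 and 14685 CPM in every library. Rag2, which defines developing lymphocytes, was listed at 0 in all 12, the 1 gene of 12 thymocyte markers for which this held. Summed over the 12 thymocyte markers, the level was 18.3 to 41.5 CPM across libraries. The 12 macrophage and dendritic cell markers summed to 49.1 to 124 CPM, and the 7 B cell markers to 64.3 to 89.97 CPM. Replicates spread unevenly, with a biological coefficient of variation of 0.294 in Kat7 knockout, 0.469 in control, 0.125 in WM-3835 and 0.103 in DMSO libraries. Xist, the RNA of the silenced X chromosome, was also uneven: 1709, 1191 and 4.94 CPM in Kat7 knockout libraries, 2.34 to 3.17 CPM in control libraries, 846 to 2118 CPM in WM-3835 libraries and 1382 to 1898 CPM in DMSO libraries.

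A ribosome is assembled from ribosomal RNA and one copy of nearly every ribosomal protein, so their genes are expressed together and at high levels in growing cells. Their messenger RNAs typically begin with a C followed by a run of pyrimidines, the 5' terminal oligopyrimidine or TOP tract. Through this tract the kinase complex mTORC1 and the RNA-binding protein LARP1 set how much of the message is translated and how stable it is. In the thymus, medullary TECs make proteins of many tissues, and defects of single ribosomal proteins are known to act on T cell development in mice.

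The start sites of 9 members are shown because the TOP tract is the sequence feature that the family is known for. RefSeq's promoter table (GRCm38.p6, also called mm10) had an entry for 61 of the 83. Each line gives the gene's own strand, 5' to 3', with 30 bases before the annotated start and 15 from it. Capitals mark the tract, that is, a C at the start and the unbroken run of C and T that follows. The first 6 have a tract, and the last 3 do not begin with C at the annotated start. Rps19 has 3 annotated starts in the table, of which 1 is shown.
Rps10 (chr17:27635230-27635274, minus strand): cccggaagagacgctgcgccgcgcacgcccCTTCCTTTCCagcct
Rps15a (chr7:118116133-118116177, minus strand): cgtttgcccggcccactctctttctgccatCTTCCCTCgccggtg
Rps6 (chr4:86857353-86857397, minus strand): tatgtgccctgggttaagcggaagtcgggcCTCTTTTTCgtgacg
Rps18 (chr17:33955651-33955695, minus strand): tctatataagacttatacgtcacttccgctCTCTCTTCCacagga
Rplp2 (chr7:141447621-141447665, plus strand): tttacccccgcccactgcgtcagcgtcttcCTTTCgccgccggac
Rpl15 (chr14:18270972-18271016, minus strand): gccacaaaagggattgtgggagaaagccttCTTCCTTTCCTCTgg
Rps19 (chr7:24884562-24884606, plus strand): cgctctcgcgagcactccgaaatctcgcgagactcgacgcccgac
Rpl12 (chr2:32961682-32961726, plus strand): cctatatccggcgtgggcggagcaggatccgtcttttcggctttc
Rpsa (chr9:120127736-120127780, plus strand): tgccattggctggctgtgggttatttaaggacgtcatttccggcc

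A tract of at least 5 bases at the annotated start was present in 14 of the 61 members (23%), against 3.01% of the 27025 genes in the table. Its length ran to 13 bases in Rpl15, with a median of 8 among those 14. The count depends on the annotated start, and a start placed a few bases off hides a tract: in the Rpl12 line, pyrimidines run shortly after the annotated start. A run of the same make-up lay anywhere between 10 bases before and 15 bases after that start in 63.9% of the members, against 34.4% of all genes.

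The motif CCGGAAG, the core bound by ETS factors, lay on either strand of the 250 bases before the start in 29.5% of members and 7.83% of all genes. AAGATGGCG, the core of YY1 sites, was found in 3.28% of members and 0.71% of all genes, and GGGCGG, the core of SP1 sites, in 49.2% of members and 35.4% of all genes. CACGTG, the E-box that MYC binds, was in 8.2% of members and 6.86% of all genes, and TATAAA in 6.56% of members and 14.3% of all genes. No motif contains another, and a match describes the window only.

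Levels differed widely among the members although the ribosome holds them in near-equal number. By counts per kilobase and library size (RPKM, the mean of 12 libraries), the highest were Rplp1 at 891, Rpl8 at 876, Rps15 at 840 and Rpl4 at 776. Rplp1 encodes a protein of the stalk that recruits elongation factors, Rpl8 and Rpl4 reach into the core of the large subunit, and Rps15 sits in the head of the small subunit. The lowest were Rpl39 at 2.97, Rpl3l at 0.145, Rpl39l at 0.0453 and Rpl10l at 0.00664. The last 3 are copies of Rpl3, Rpl39 and Rpl10 known from striated muscle (Rpl3l) and testis (Rpl39l and Rpl10l). Among members that are not such copies, Rpl39 was followed by Rpl31 at 8.2 and Rps13 at 8.92 RPKM.

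How well a member can be counted depends on its copies, since ribosomal protein genes have many processed pseudogenes. For each member the longest protein-coding GENCODE transcript was used, where there was one. In 32 members, under 50% of its 75-base windows occurred in no other gene's transcript, in 35 it was 50% to 90% and in 16 it was 90% or more. That transcript can be longer than the deposited length, as in Rps20 (3706 against 502 bases), or shorter, as in Rps6 (878 against 1394 bases). The share therefore describes the chosen transcript, which need not be the RNA that was counted. Rpl5 was the member with the smallest unique share among those named here, at 7.5%. How the authors' counting treated shared reads is not stated, so the levels in the first class are uncertain. The median level was 73.3 RPKM in the first class, 81.8 in the second and 128 in the third, and Spearman's rho between unique share and level was 0.177 over the 83 members. That correlation is across genes of the same libraries and describes them only.

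**Figure D1:**
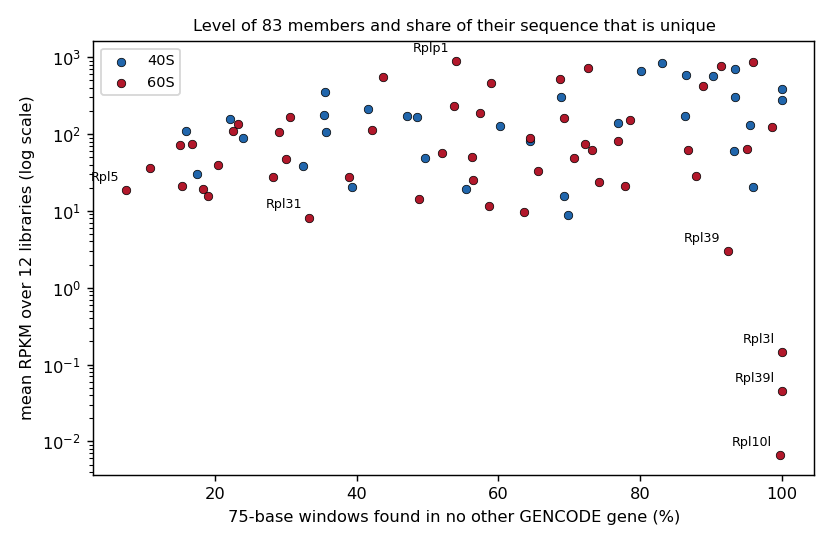
Mean level of each of the 83 members over 12 libraries (RPKM, log scale) against the share of its 75-base windows found in no other GENCODE gene (percent), 40S members in blue and 60S members in red. The 3 muscle and testis copies lie at the bottom right, where counting is unique, at 0.145 RPKM or less.

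Together the members took 0.989% to 1.48% of a library's counts. Summed over the 83 genes, the level was 12704, 12305 and 13576 CPM in WM-3835 libraries, against 14857, 14611 and 14620 CPM in DMSO libraries. It was 11600, 9889 and 10494 CPM in Kat7 knockout libraries, against 12196, 11225 and 10219 CPM in control libraries. WM-3835 libraries lay below DMSO libraries without overlap, whereas Kat7 knockout and control libraries overlapped. The ratio of means was 0.875 for WM-3835 over DMSO and 0.951 for Kat7 knockout over control. DMSO libraries were 1.31 times control libraries. Counted per length the 3 ratios were 0.878, 0.955 and 1.32. A sum over genes that were picked as a family was given no test.

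The 78 mitochondrial ribosomal protein genes, which build the separate ribosome inside mitochondria, did not follow the same order over the 4 groups. DMSO libraries were above control libraries in both sets, at 1.16 times for the mitochondrial sum and 1.31 times for the cytosolic sum. Their sum averaged 2631 ± 79 CPM in WM-3835 libraries and 2565 ± 55.0 CPM in DMSO libraries (SD, n = 3 each). It averaged 2332 ± 83 CPM in Kat7 knockout libraries and 2208 ± 10.4 CPM in control libraries (SD, n = 3 each). The cytosolic sum averaged 12862 ± 650 CPM in WM-3835 libraries, 14696 ± 140 CPM in DMSO libraries, 10661 ± 867 CPM in Kat7 knockout libraries and 11213 ± 988 CPM in control libraries (SD, n = 3 each).

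**Figure D2:**
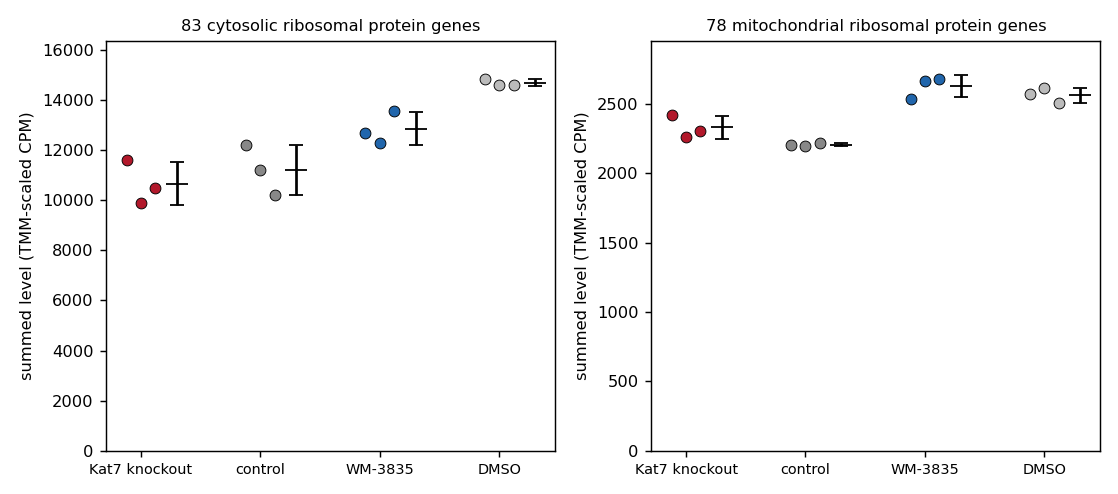
Summed level in each library (TMM-scaled CPM) of the 83 cytosolic members (left) and the 78 mitochondrial ribosomal protein genes (right); points are libraries, and bars are mean and SD of 3. For the cytosolic genes the 3 WM-3835 libraries, at 12305 to 13576 CPM, lie below the 3 DMSO libraries, at 14611 to 14857 CPM, and Kat7 knockout and control libraries overlap.

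The first comparison asks how inhibition of KAT7 by WM-3835 changed these genes relative to DMSO. In WM-3835 cultures 15 of the 81 tested members were lower and 0 were higher, at an adjusted p under 0.05 in edgeR's quasi-likelihood test. The total called, 18.5% of members, was near the 18.7% of all genes called in this comparison. The direction differed: over all genes 9.35% were called lower and 9.34% higher. At an unadjusted p under 0.05, 26 members were lower and 0 higher, and DESeq2 and limma-voom also called 0 higher. The median log2 fold change was -0.18 over the members and -0.01 over all genes tested, and 75 of the 81 values were below 0. In 42 of the 81, all 3 WM-3835 libraries lay below all 3 DMSO libraries, as was the case for 23% of all genes.

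Small-subunit genes made up most of the called members, 10 of 32 (31.2%), with 5 of 49 (10.2%) in the large subunit. The large-subunit share was near the 9.35% of all genes called lower. All 32 small-subunit values were below 0, with a median of -0.19, and the large-subunit median was -0.17. The difference between the subunits was not tested.

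Rps15a, a protein of the small-subunit body, had 92.8, 92.8 and 107 CPM in WM-3835 libraries, against 140, 129 and 132 CPM in DMSO libraries. The groups did not overlap, and WM-3835 library 3 was the highest of its group. It fell by 0.46 on the log2 scale (SE 0.08, edgeR adjusted p = 0.000715). Its tract, printed above, is 8 bases long.

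Rps19, needed to mature the small subunit's ribosomal RNA and, in humans, the gene most often mutated in Diamond-Blackfan anaemia, had 75.6, 80.6 and 93.5 CPM in WM-3835 libraries, against 122, 115 and 116 CPM in DMSO libraries. The highest WM-3835 library stayed well under the lowest DMSO library. Its log2 fold change was -0.50 (SE 0.10, edgeR adjusted p = 0.00104).

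Rps10, a small-subunit head protein that is also mutated in that anaemia in humans, had 92.6, 91.7 and 96.3 CPM in WM-3835 libraries, against 123, 120 and 124 CPM in DMSO libraries. Both groups were tight and apart, and the log2 fold change was -0.39 (SE 0.09, edgeR adjusted p = 0.00597).

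Rpsa, a small-subunit protein also known as the laminin receptor, had 236, 230 and 245 CPM in WM-3835 libraries, against 287, 295 and 287 CPM in DMSO libraries. Again no WM-3835 library reached a DMSO library, and the log2 fold change was -0.29 (SE 0.07, edgeR adjusted p = 0.00987). Rps15a, Rps19, Rps10 and Rpsa were the 4 members that stayed called whichever of the 6 libraries was left out.

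Rps24, another gene of Diamond-Blackfan anaemia in humans, had 153, 145 and 162 CPM in WM-3835 libraries, against 192, 191 and 185 CPM in DMSO libraries. The groups did not overlap. The gene's log2 fold change was -0.31 (SE 0.08, edgeR adjusted p = 0.0154).

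Rpl12, which forms the base of the stalk on the large subunit, had 38.6, 35.4 and 37.4 CPM in WM-3835 libraries, against 51.7, 46.7 and 54.0 CPM in DMSO libraries. Its groups did not overlap, and its log2 fold change was -0.45 (SE 0.13, edgeR adjusted p = 0.0164), the largest fall among large-subunit genes called. Rps15, among the highest in level, had 407, 436 and 454 CPM in WM-3835 libraries, against 535, 533 and 520 CPM in DMSO libraries. Its log2 fold change was -0.29 (SE 0.08, edgeR adjusted p = 0.0182).

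Also called lower were Rpl22, Rps7, Rpl8, Rpl3, Rpl13a, Rps3 and Rps6. Their log2 fold changes ran from -0.33 in Rpl13a to -0.23 in Rpl3. Rpl22 is required in mice for the development of alpha-beta T cells, and Rps6 is the ribosomal protein phosphorylated downstream of mTORC1. Rpl22 had 247, 222 and 261 CPM in WM-3835 libraries, against 295, 284 and 289 CPM in DMSO libraries, without overlap.

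The number of members called lower depended on single libraries. It was 5 without WM-3835 library 1, 6 without WM-3835 library 2, 7 without DMSO library 1, 6 without DMSO library 2 and 7 without DMSO library 3, but 16 without WM-3835 library 3. It was 31 when only the 6 libraries of the comparison were fitted, and those included all 15. With upper-quartile scaling 24 members were lower and 0 higher. That scaling also moved the share of higher calls among all called genes to 39.9%, against 50% with TMM scaling.

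**Figure D3:**
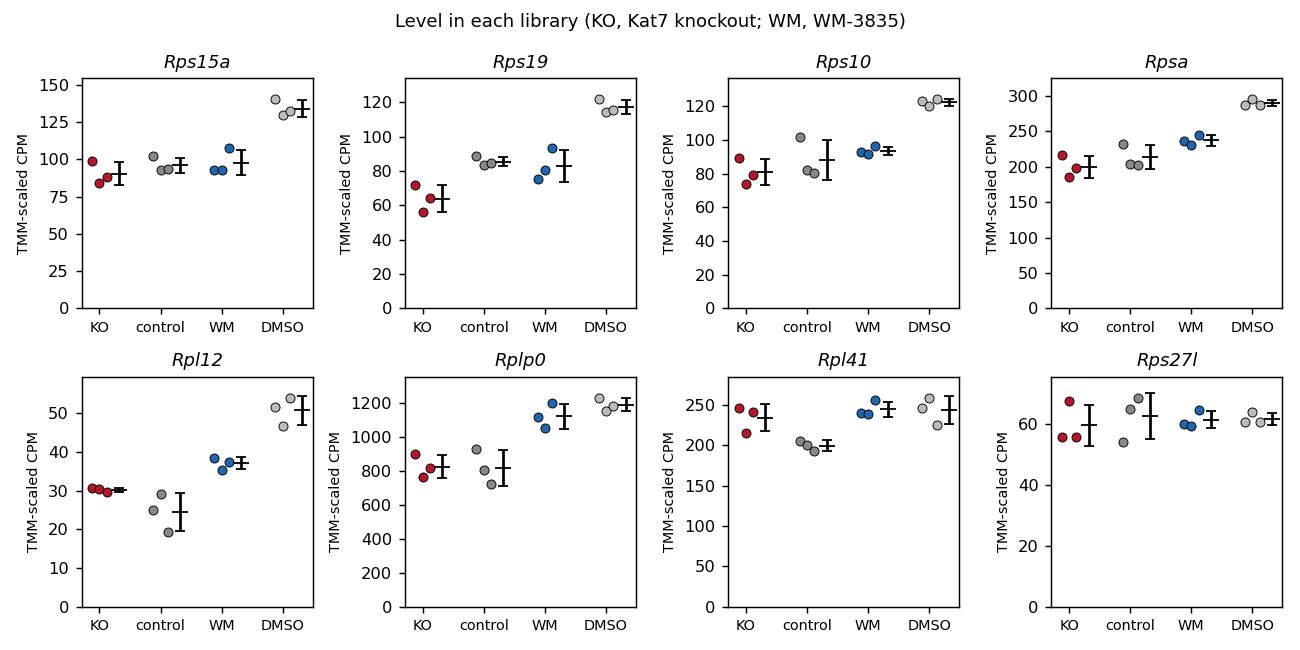
Level of 8 members in each library (TMM-scaled CPM, axes from 0), with points for libraries and bars for mean and SD of 3. Rps15a, Rps19, Rps10, Rpsa and Rpl12 were called lower in WM-3835 than in DMSO cultures, whereas Rplp0, Rpl41 and Rps27l were not called in that comparison.

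The second comparison asks what loss of Kat7 changed relative to control cultures. Few members were called: 2 were higher and 4 lower of the 81, or 7.41%, against 14.2% of all genes (6.12% higher and 8.06% lower). The median log2 fold change was -0.07 over the members and -0.01 over all genes, and 56 of 81 values were below 0. Among the 74 members with a mean of at least 10 CPM, changes stayed between -0.42 and 0.34.

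Rps19 had the smallest adjusted p. It had 71.7, 55.9 and 64.5 CPM in Kat7 knockout libraries, against 88.5, 83.5 and 84.5 CPM in control libraries. The groups were apart, and its log2 fold change was -0.42 (SE 0.10, edgeR adjusted p = 0.0075). Rps19 was the 1 member called lower in both main comparisons, which share no library, where 470 of the 18670 genes tested were called lower in both.

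Rpl6, a large-subunit protein, had 122, 112 and 114 CPM in Kat7 knockout libraries, against 149, 142 and 128 CPM in control libraries. Rps4l had 60.4, 47.2 and 45.5 CPM in Kat7 knockout libraries, against 71.2, 69.3 and 58.2 CPM in control libraries. The groups of Rpl6 were apart and those of Rps4l overlapped. Log2 fold changes were -0.27 (SE 0.08, edgeR adjusted p = 0.0311) for Rpl6 and -0.38 (SE 0.12, edgeR adjusted p = 0.0445) for Rps4l.

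Rpl39, an X-linked gene for a small protein of the exit tunnel, had 0.413, 0.663 and 0.278 CPM in Kat7 knockout libraries, against 1.14, 2.27 and 2.89 CPM in control libraries. This is the lowest level of any called member, and its log2 fold change of -2.21 had a wide SE of 0.71 (edgeR adjusted p = 0.0456). Rpl38, known in mice for helping Hox messages to be translated, had 5.23, 4.49 and 4.00 CPM in Kat7 knockout libraries, against 3.45, 1.34 and 1.17 CPM in control libraries. Control library 1 stood above the other 2 controls, and the log2 fold change was 1.20 (SE 0.38, edgeR adjusted p = 0.0444). Rpl41, which encodes the smallest ribosomal protein, had 246, 215 and 241 CPM in Kat7 knockout libraries, against 205, 201 and 193 CPM in control libraries. Its groups did not overlap, and its log2 fold change was 0.23 (SE 0.07, edgeR adjusted p = 0.0449). It was not called with upper-quartile scaling (edgeR adjusted p = 0.059) or with total counts only (edgeR adjusted p = 0.0548).

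No knockout call held in every fit that left out 1 library. The number lower was 5 without knockout library 1, 0 without knockout library 2, 1 without knockout library 3, 2 without control library 1, 1 without control library 2 and 5 without control library 3. In the same order the number higher was 1, 2, 1, 3, 2 and 0. With the 6 libraries of the comparison alone, Rps19 was the 1 member called. With knockout library 3 alone as knockout, the library whose Xist level was nearest the controls, 0 members were called. That fit has 1 library in an arm, which is assumed to vary like the libraries of the other groups, and over the whole table it called 248 genes higher and 456 lower, against 1142 and 1504 with all 3. The members' median log2 fold change in it was -0.10, against -0.07 with all 3, and that of Rps19 was -0.39 (edgeR adjusted p = 0.108). With Xist as a covariate 0 members were also called, and over all genes 173 were called higher and 330 lower. The members' median was then -0.13, and the log2 fold change of Rps19 was -0.43 (edgeR adjusted p = 0.143). The 6 members called with all libraries kept their direction in both of these fits.

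Fibroblast markers also moved with this comparison: 5 of the 12 were called lower and 0 higher (41.7%, against 14.2% of all genes called). Their summed level ran from 97.3 to 126 CPM in Kat7 knockout libraries and from 162 to 258 CPM in control libraries. Of the 12 epithelial markers, 5 were lower and 1 higher after knockout (50%). In sorted bulk RNA, fewer cells of a type and less RNA per cell cannot be told apart. The part of these markers in the ribosomal protein values was not tested. For WM-3835 against DMSO the fibroblast sum ran from 85.2 to 104 CPM in WM-3835 libraries and from 96.9 to 119 CPM in DMSO libraries. In that comparison 3 fibroblast markers were lower and 1 higher. Of 12 epithelial markers, 7 were lower, Aire included, and 1 higher (66.7%, against 18.7% of all genes called).

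Whether the 2 effects differed was tested directly. The knockout effect minus the inhibitor effect was called for Rpl12 alone, which was higher, 1 of 81 members or 1.23%, against 10.1% of all genes (4.41% higher and 5.69% lower). Rpl12 had 30.6, 30.4 and 29.7 CPM in Kat7 knockout libraries, against 25.1, 29.2 and 19.3 CPM in control libraries. Its log2 fold change was 0.30 after knockout (edgeR adjusted p = 0.134) and -0.45 with WM-3835. The difference was 0.75 (SE 0.18, edgeR adjusted p = 0.0105). It was called with any single library left out, with up to 7 members called, the most without control library 1. With knockout library 3 as the only knockout library, its spread assumed like that of the other groups, the difference was 0.74 and not called (edgeR adjusted p = 0.0885). With Xist as a covariate it was 0.72 and not called (edgeR adjusted p = 0.107).

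**Figure D4:**
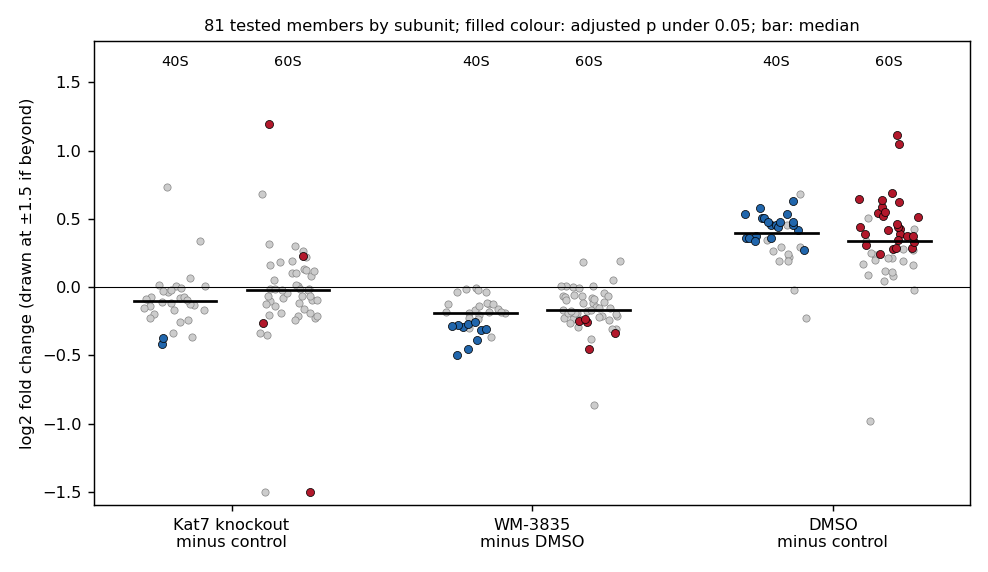
Log2 fold change of each of the 81 tested members in 3 comparisons, split by subunit; coloured points had an adjusted p under 0.05 and black bars are medians. The WM-3835 points lie mostly below 0 with a median of -0.18 over both subunits, the knockout points scatter around -0.07, and the DMSO minus control points lie mostly above 0 with a median of 0.36.

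The largest change in the family was between DMSO and control cultures. These differ in genotype label, in treatment and in Xist, at 1382 to 1898 CPM in DMSO libraries and 2.34 to 3.17 CPM in control libraries. The Y-linked gene Ddx3y had 25.2 to 52.7 CPM in DMSO libraries, against 83.05 to 104.5 CPM in control libraries (edgeR adjusted p = 0.0115). No label gives the sex of the embryos, and its part was not tested. The parts of these factors cannot be told apart, so the difference between DMSO and control cultures is given as a description. It shares the DMSO libraries with the inhibitor comparison and the control libraries with the knockout comparison. DMSO libraries had 47 of 81 members higher and 0 lower than control libraries in edgeR's test, or 58%, against 24.6% of all genes called and 11.4% called higher. At an unadjusted p under 0.05, 61 members were higher and 0 lower, and DESeq2 and limma-voom called 48 and 54 higher and 0 lower. The median log2 difference was 0.36 over the members and 0.00 over all genes. In 61 of 81 members all 3 DMSO libraries lay above all 3 control libraries, as did 19.6% of all genes.

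Both subunits took part, with 20 of 32 small-subunit and 27 of 49 large-subunit members higher. With 1 library left out, the count stayed between 40 and 52. With Xist as a covariate, which tells these 2 groups apart almost completely, it was 3, and the median difference of the members was 0.30. Other values moved with the same comparison: 6 of 12 fibroblast markers were lower and 1 higher in DMSO libraries (58.3%, against 24.6% of all genes called). DMSO libraries held 96.9 to 119 CPM of them, against 162 to 258 CPM in control libraries. Of 12 epithelial markers, 5 were lower and 3 higher in DMSO libraries. Rn45s, the ribosomal RNA precursor, took 0.664% of the counts of control library 1 and 0.165% to 0.265% elsewhere. The part of these in the difference was not tested.

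Rpl12 showed the largest log2 difference among members above 10 CPM, at 1.05 (SE 0.13, edgeR adjusted p = 6.93e-06), with 46.7 to 54.0 CPM in DMSO libraries and 19.3 to 29.2 CPM in control libraries. Rplp1 differed by 0.69, Rps20 by 0.63, Rpl10a by 0.59 and Rplp0 by 0.54. Rps20 had 448, 458 and 441 CPM in DMSO libraries, against 317, 306 and 247 CPM in control libraries. These groups were far apart, with control library 3 the lowest.

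The stalk proteins that draw elongation factors to the ribosome are encoded by Rplp0, Rplp1 and Rplp2. In the main fit none of these genes was called after knockout or with WM-3835. Rplp0, the stalk's anchor, had 1114, 1050 and 1196 CPM in WM-3835 libraries and 1229, 1152 and 1180 CPM in DMSO libraries, which overlapped. It had 895, 761 and 814 CPM in Kat7 knockout libraries and 928, 802 and 720 CPM in control libraries, which overlapped as well. Rplp1 had 466, 428 and 482 CPM in WM-3835 libraries, against 565, 522 and 530 CPM in DMSO libraries. The groups did not overlap, but its log2 fold change of -0.23 was not called (edgeR adjusted p = 0.0968). It was called by DESeq2 and with the 6 libraries of the comparison alone. Rplp2 had 39.0, 41.8 and 43.2 CPM in WM-3835 libraries, against 45.6, 43.6 and 42.2 CPM in DMSO libraries, with overlap.

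Rpl5 and Rpl11, which with a small ribosomal RNA bind MDM2 and restrain it when ribosome assembly fails, were not called in either main comparison. Rpl5 had 39.6, 38.6 and 40.3 CPM in WM-3835 libraries and 46.4, 44.9 and 40.4 CPM in DMSO libraries, with 39.4, 34.2 and 37.8 CPM in Kat7 knockout libraries and 35.7, 36.2 and 23.7 CPM in control libraries. Rpl11 had 16.5, 18.5 and 18.2 CPM in WM-3835 libraries and 16.8, 17.2 and 19.4 CPM in DMSO libraries. It averaged 13.2 ± 2.23 CPM in Kat7 knockout libraries and 16.9 ± 2.22 CPM in control libraries (SD, n = 3 each), and the log2 fold change was -0.35 (SE 0.16, edgeR adjusted p = 0.152).

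Rpl10a, which part of the ribosomes of mouse stem cells lack, and Rps26, which part of the ribosomes of stressed yeast lack, were also uncalled in both main comparisons. Rps26 had 139, 155 and 158 CPM in WM-3835 libraries and 164, 171 and 157 CPM in DMSO libraries. Rpl10a had 120, 119 and 120 CPM in WM-3835 libraries and 131, 136 and 137 CPM in DMSO libraries. The Rpl10a groups did not overlap, but its log2 fold change of -0.17 had an edgeR adjusted p of 0.196. After knockout the log2 fold change was -0.20 for Rps26 (edgeR adjusted p = 0.257) and 0.13 for Rpl10a (edgeR adjusted p = 0.349).

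Among the copies whose symbol ends in l, Rps27l, a p53 target, was the steadiest, at 54.1 to 68.7 CPM over all 12 libraries. Its log2 fold changes were -0.07 after knockout, -0.01 with WM-3835 and -0.02 for DMSO minus control. Its parent Rps27 was lower, at 12.3 ± 1.11 CPM in WM-3835 and 14.1 ± 1.28 CPM in DMSO libraries (SD, n = 3 each). Rps4l, which RefSeq annotates as a transcribed pseudogene, had 45.5 to 71.2 CPM beside 125 to 172 CPM for the X-linked Rps4x, and 93.3% of its windows were unique. Unlike most of the family, Rps4l was not higher in DMSO than in control libraries (log2 difference -0.23, edgeR adjusted p = 0.184).

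Rpl6l, a pseudogene in RefSeq, had 124 to 186 CPM, about the range of Rpl6 at 112 to 168 CPM. Only 30.6% of the Rpl6l windows and 42.2% of the Rpl6 windows were unique, so reads may have been shared between such loci. Rpl32l had 24.2 to 46.6 CPM beside 160 to 263 CPM for Rpl32. Rpl3l reached 1.05 CPM in control library 2 and was at 0.562 CPM or less elsewhere, and no change was called for it. Rpl10l and Rpl39l, with 4 and 12 counts over all libraries, were not tested.

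Of the 4 X-linked members, Rps4x, Rpl10, Rpl36a and Rpl39, only Rpl39 was called after knockout and none with WM-3835. Rpl10, mutated in some human T cell leukaemias, had 60.4, 59.6 and 64.2 CPM in WM-3835 libraries and 60.2, 66.2 and 66.3 CPM in DMSO libraries. It had 57.2, 49.4 and 55.4 CPM in Kat7 knockout libraries and 47.6, 57.7 and 48.1 CPM in control libraries. Both pairs overlapped.

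Another 7 ribosomal proteins carry symbols outside the rule, and they were examined apart. With WM-3835, 2 of them fell (28.6%, against 9.35% of all genes called lower). Rps3a1, a small-subunit protein, had 115, 115 and 118 CPM in WM-3835 libraries, against 155, 141 and 144 CPM in DMSO libraries (log2 fold change -0.34, edgeR adjusted p = 0.0132). Rpl36al, the autosomal copy of Rpl36a, had 56.9, 58.0 and 64.0 CPM in WM-3835 libraries, against 80.2, 78.3 and 81.7 CPM in DMSO libraries (log2 fold change -0.43, edgeR adjusted p = 0.00313). After knockout Rpl36al had 80.0, 65.6 and 77.9 CPM in Kat7 knockout libraries, against 66.3, 61.7 and 56.0 CPM in control libraries, a log2 fold change of 0.28 that was not called (edgeR adjusted p = 0.0534). Its difference between the effects was 0.71 (SE 0.13, edgeR adjusted p = 0.00165). Rpl22l1, the copy that Rpl22 is known to repress in mice, fell after knockout by 0.47 on the log2 scale (SE 0.15, edgeR adjusted p = 0.043), with 22.3 to 30.1 CPM in Kat7 knockout libraries and 30.1 to 45.6 CPM in control libraries.

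Host genes of small nucleolar RNAs carry RNAs that guide modification of ribosomal RNA in their introns, and many of their transcripts begin with a TOP tract as well. Of 16 tested, 5 fell with WM-3835 (31.2%, against 9.35% of all genes called lower). The list median was -0.36, beside -0.01 over all genes. Snhg12 had 48.0, 44.9 and 51.3 CPM in WM-3835 libraries, against 97.1, 94.0 and 94.2 CPM in DMSO libraries (log2 fold change -0.99, edgeR adjusted p = 7.64e-07). Zfas1 had 40.4, 38.2 and 45.9 CPM in WM-3835 libraries, against 77.9, 71.7 and 80.7 CPM in DMSO libraries (log2 fold change -0.89, edgeR adjusted p = 7.85e-06). Snhg5 had 36.6, 35.8 and 44.2 CPM in WM-3835 libraries, against 62.3, 71.0 and 65.2 CPM in DMSO libraries (log2 fold change -0.77, edgeR adjusted p = 7.22e-05).

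These falls were larger than that of any called member, and none of the 3 genes' groups overlapped. Snhg1 and Gas5 were the other two, with log2 fold changes of -0.60 and -0.40. After knockout 1 of the 16 was called (6.25%, against 14.2% of all genes). Snhg5 was higher, with 40.7, 36.1 and 34.7 CPM in Kat7 knockout libraries, against 30.2, 26.2 and 26.1 CPM in control libraries (log2 fold change 0.44, edgeR adjusted p = 0.0143). The knockout effect and the inhibitor effect differed for 5 of the 16 (31.2%, against 10.1% of all genes), namely the 5 genes that fell with WM-3835. DMSO libraries were higher than control libraries for 7 of the 16 (43.8%, against 11.4% of all genes), with a median of 0.64.

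Genes that assemble ribosomes did not fall with the ribosomal proteins under WM-3835. Of 40, 2 were higher and 2 lower (10%, against 18.7% of all genes called), and the median was 0.03. The 2 lower were Noc2l and Rrs1, both nucleolar factors of the large subunit. After knockout 5 rose and 1 fell, with a median of 0.12. That is 15%, near the 14.2% of all genes called. Nop14, a factor of small-subunit assembly, had 57.4, 61.7 and 63.8 CPM in Kat7 knockout libraries, against 50.1, 46.0 and 42.1 CPM in control libraries (log2 fold change 0.40, edgeR adjusted p = 0.0112). Gnl3, the nucleolar protein nucleostemin, had 82.8, 84.3 and 84.5 CPM in Kat7 knockout libraries, against 64.3, 71.8 and 58.8 CPM in control libraries (log2 fold change 0.37, edgeR adjusted p = 0.00707). Between DMSO and control cultures, 27 of the 40 were higher in DMSO libraries (67.5%, against 11.4% of all genes), with a median of 0.44.

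Translation factors changed little with WM-3835. Of 20 elongation factors and other TOP messages, 2 fell (10%, against 9.35% of all genes called lower). These were Ybx1, an RNA-binding protein, by 0.34 and Naca, a chaperone of nascent chains, by 0.26 on the log2 scale. Eef1a1 and Eef2, the main elongation factors, had log2 fold changes of -0.01 and -0.15 and were not called. Of 23 initiation factors, 1 was higher and 1 lower with WM-3835 (8.7%, against 18.7% of all genes called). After knockout 4 were higher (17.4%, against 14.2% of all genes called), among them Eif3c at 0.40 and Eif2s3x, an X-linked gene, at 0.51. Eif2s3x had 83.8, 74.0 and 61.0 CPM in Kat7 knockout libraries 1, 2 and 3, of which library 3 had low Xist. Control libraries, where Xist was low, had 47.3 to 55.5 CPM of it. DMSO libraries, where Xist was high, had 81.5 to 85.3 CPM. The cause of this rise was not tested.

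The regulators of mTORC1 were mixed: of 18, 3 were higher and 1 lower after knockout, and 3 were higher with WM-3835. That is 22.2% and 16.7%, against 14.2% and 18.7% of all genes called in the same comparisons. Sesn2, a leucine sensor that holds mTORC1 back, had 144, 127 and 152 CPM in Kat7 knockout libraries, against 84.8, 105 and 86.0 CPM in control libraries (log2 fold change 0.62, edgeR adjusted p = 0.000236). With WM-3835 its log2 fold change was -0.15 and not called. Ddit4, a stress-induced mTORC1 inhibitor, moved in opposite directions: its log2 fold change was -0.71 after knockout (edgeR adjusted p = 1.03e-05) and 0.36 with WM-3835 (edgeR adjusted p = 0.00227).

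Proliferation genes rose with WM-3835 in 8 of 15 tested (53.3%, against 9.34% of all genes called higher), with a median log2 fold change of 0.48. Mcm5, a subunit of the replicative helicase, had 45.8, 55.7 and 46.9 CPM in WM-3835 libraries, against 30.7, 31.7 and 28.1 CPM in DMSO libraries (log2 fold change 0.71, edgeR adjusted p = 0.000248). The called ribosomal proteins moved the other way in that comparison. Of 12 genes of p53 and the ribosomal stress response, 3 were higher and 2 lower after knockout (41.7%). With WM-3835, 4 were higher (33.3%). Of 13 genes of RNA polymerase I, which transcribes ribosomal RNA, 1 was higher and 1 lower after knockout (15.4%). With WM-3835, 1 was higher (7.69%). Of 10 genes of the Myc network, 1 was higher and 2 lower after knockout (30%), and 1 was higher and 1 lower with WM-3835 (20%). Of 11 chaperones and importers of ribosomal proteins, 1 was higher and 1 lower with WM-3835 (18.2%). Over all genes, 14.2% were called after knockout and 18.7% with WM-3835.

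**Figure D5:**
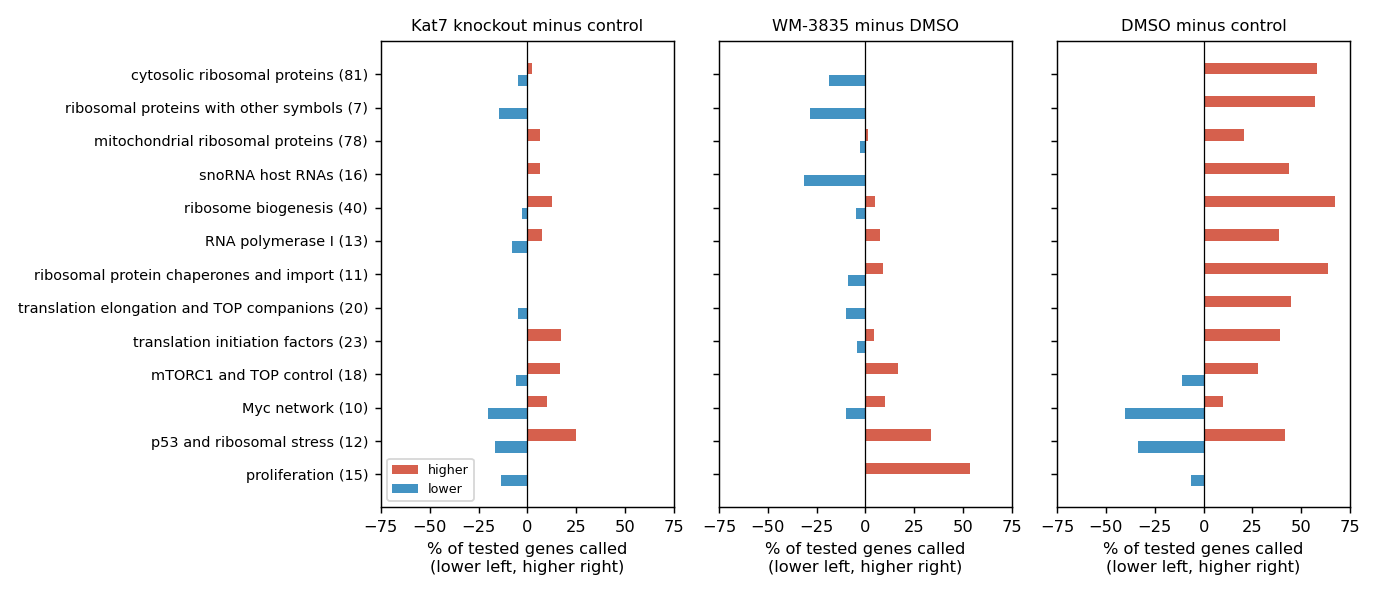
Share of tested genes called higher (red, to the right) and lower (blue, to the left) in each list, in percent, for 3 comparisons; the number of tested genes of each list stands beside its name. Ribosomal proteins, with 15 of 81 lower, and snoRNA host RNAs, with 5 of 16 lower, have bars to the left alone for WM-3835 minus DMSO. For DMSO minus control both have bars to the right alone. Ribosomal proteins with other symbols and the elongation and TOP companions show the same pair of bars. Mitochondrial ribosomal proteins, ribosome biogenesis, initiation factors, RNA polymerase I and chaperones also have bars to the right alone for DMSO minus control.

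Member genes are short, and short genes had their own shift. Of the 81 tested, 63 are under 1000 bases in the deposited table, and their median log2 fold change with WM-3835 was -0.17, with 12.7% called lower. The 2121 other tested genes under 1000 bases had a median of -0.10, with 7.45% called lower. After knockout both medians were -0.07. For DMSO minus control they were 0.36 for the members and -0.01 for the other short genes.

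By the transcript chosen for each gene, the calls were not limited to members with few unique windows. With WM-3835, 6 of 32 members with under 50% unique windows, 5 of 35 with 50% to 90% and 4 of 14 tested with 90% or more were lower, with medians of -0.19, -0.18 and -0.18. The TOP tract at the annotated start was present in 3 of 12 of the WM-3835-lower members with a promoter entry (25%) and in 11 of 47 of the other tested members (23.4%).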

How the data were processed

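RNA of sorted TECs was sequenced as 75-base pairs from libraries made with the TruSeq RNA v2 kit, which does not mark strand. The authors deposited raw counts per gene, with Entrez ID, symbol and length per the file headers. Per the submitters' processing notes, featureCounts and mm10 were used. No source used here names the aligner, the annotation or the treatment of shared reads. Rows without a symbol (1312, holding 0.657% to 0.743% of counts) were left out.

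Counts were scaled by TMM and tested with edgeR 4.0.16 in R 4.3.3 (filterByExpr, quasi-likelihood, 4 group means over all 12 libraries, two-sided, Benjamini-Hochberg over 18670 genes). Positive log2 fold changes mean higher in the first-named group. CPM and RPKM were computed from the deposited counts with TMM library sizes and the deposited lengths. P-values rest on the spread between the 3 libraries of each group, estimated for each gene as a single value shared by the 4 groups. The groups themselves spread unequally, with coefficients of variation from 0.103 in DMSO to 0.469 in control libraries. Replicates of each group differed by more than sampling noise, with mean chi-square per gene of 8.46 to 50.7. The fit was tested on simulated data first.

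Members, lists and tests were chosen with earlier results of these data known. Members named are those with the smallest adjusted p per comparison (up to 8 each way), the 4 highest and 4 lowest levels, all copies ending in l, and the stalk, assembly and disease genes given; up to 3 genes per list. A gene that this rule takes is not reported here. Promoters and positions come from RefSeq (GRCm38.p6) and windows from GENCODE transcripts. Alternatives were other scalings, filters, DESeq2 1.42.0, limma-voom (limma 3.58.1), single libraries left out, a replicate block, fewer libraries, a wider member rule and, chosen after seeing the data, Xist as a covariate.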

Additional observations from a re-analysis of the deposited data

Results flagged for a closer look

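The effect of Kat7 loss and the effect of WM-3835 differed, by a test of the difference itself (knockout effect minus inhibitor effect on the log2 scale, edgeR's quasi-likelihood test with adjustment over 18670 genes), for 15 of the genes named in the text. Among the members this was Rpl12 (0.75, SE 0.18, adjusted p = 0.0105), and among ribosomal proteins outside the rule Rpl36al (0.71, SE 0.13, adjusted p = 0.00165). Kat7 itself differed by -6.93 (adjusted p = 2.47e-15), and Aire by 0.87 (adjusted p = 4.7e-05).

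The snoRNA host genes differed in 1 direction. Snhg5 differed by 1.20 (adjusted p = 6.14e-05), Snhg12 by 1.15 (adjusted p = 2.07e-05), Zfas1 by 0.70 (adjusted p = 0.00408), Snhg1 by 0.54 (adjusted p = 0.0236) and Gas5 by 0.53 (adjusted p = 0.0046). The assembly factors Noc2l, Rrs1 and Ncl differed by 0.52 (adjusted p = 0.0021), 0.41 (adjusted p = 0.0328) and 0.38 (adjusted p = 0.00567). Eif3c, an initiation factor subunit, differed by 0.44 (adjusted p = 0.0439). Of the mTORC1 regulators, Sesn2 differed by 0.76 (adjusted p = 0.000749) and Ddit4 by -1.07 (adjusted p = 6.84e-06).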

How the results depend on the processing

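Medians of the members kept their sign in all alternatives run, and no result reversed. Of the values for single named genes, 4319 kept their side of the threshold, 289 lost a call and 57 gained one. These values pool genes, comparisons and settings, and include genes that were not called to begin with. Of the calls themselves, 0 of 6 after knockout, 4 of 15 with WM-3835 and 38 of 47 for DMSO minus control held whichever library was left out. After knockout, the members higher (2) numbered 1 with upper-quartile scaling, with total counts only and with the replicate block, and 0 with the 6 libraries of the comparison, with knockout library 3 alone and with Xist as a covariate. The members lower (4) numbered 1, 0 and 0 in those last 3 settings. With 1 library left out they ranged from 0 to 3 higher and from 0 to 5 lower. With WM-3835 the members lower (15) numbered 24 with upper-quartile scaling and 31 with the 6 libraries, and 5 to 16 with 1 library left out. The difference of the effects (1 member) gave 3 with RLE or upper-quartile scaling or a filter of CPM over 1 in 3 libraries, 2 with total counts or the wider member rule, 4 with no filter or limma-voom, 5 with DESeq2, 0 with knockout library 3 alone or with Xist as a covariate, and 1 to 7 with 1 library left out. DMSO minus control (47 higher) gave 3 with Xist as a covariate. The cause of these shifts was not tested, beyond the fewer libraries that some settings use.

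Whether the replicate numbers pair the libraries was not tested. Same-numbered libraries had weak correlations of deviations, between -0.0187 and 0.058, although in 7 of 9 cases a library was closest to its own number. With the replicate block, 16 members were lower with WM-3835, 48 were higher in DMSO than in control libraries, and 1 higher and 3 lower after knockout, where Rpl41 (edgeR adjusted p = 0.0544) and Rpl39 (edgeR adjusted p = 0.0733) were no longer called. Members of few counts, such as Rpl39, Rpl38 and Rpl3l, are limited by depth. A change larger than its standard error can also go uncalled, as for the well-counted Rplp1 with WM-3835 (-0.23, SE 0.09, edgeR adjusted p = 0.0968).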
